A study of Mus musculus with 15 samples.

Results

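Chemokines are small secreted proteins that guide leukocyte movement through receptors of the G-protein-coupled class. Microglia, the resident macrophages of the brain, make several of them at rest and many more under inflammatory or interferon stimulation. The 10 chemokine ligand genes described here, Ccl2, Ccl3, Ccl4, Ccl5, Ccl6, Ccl9, Ccl12, Cxcl2, Cxcl10 and Cxcl16, were chosen by name among the 32372 genes of a single-cell count matrix of mouse microglia, and all 10 passed the low-count filter of the fit. They fall into groups by role. Ccl3, Ccl4 and Ccl5 are inflammatory chemokines that attract monocytes and T cells, while Ccl2 and Ccl12 act on Ccr2, Cxcl10 on Cxcr3, Cxcl2 on Cxcr2, Cxcl16 on Cxcr6, and Ccl6 and Ccl9 belong to the ligands of Ccr1. Cxcl10 is a classical interferon target and Cxcl2 a classical NF-kB target, whereas Ccl6 and Ccl9 are known as constitutively made myeloid chemokines.

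The cells came from 15 male C57BL/6J mice aged 3.5 months that carried hTfR KI, the human transferrin receptor apical domain placed in the mouse locus, controls included. Each was given ATV:4D9 once at 10 mg/kg, an antibody to mouse TREM2 whose Fc part also binds the human transferrin receptor domain, or the control antibody ATV:RSV. There were 3 mice in each of 5 groups, namely ATV:RSV sampled 1 day after the dose and ATV:4D9 sampled after 1, 7, 14 or 28 days, and each of 3 processing batches held 1 mouse of every group. Days 7 to 28 had no control of the same day, so all comparisons with ATV:RSV share the same 3 mice. Cells were enriched with CD45 beads after tissue dissociation, which is known to induce some immediate early and chemokine genes in microglia.

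All 10 genes are protein coding in the GENCODE M21 annotation of mm10. Ccl5 (chr11:83525778-83530518), Ccl9 (chr11:83572919-83578636), Ccl6 (chr11:83587882-83593087), Ccl3 (chr11:83647844-83649355) and Ccl4 (chr11:83662584-83664683) lie close together on chromosome 11. Ccl2 (chr11:82035571-82037453) and Ccl12 (chr11:82101845-82103400) lie in another stretch of that chromosome, and Cxcl16 (chr11:70453983-70459984) is apart from the others. Cxcl2 (chr5:90903871-90905938) and Cxcl10 (chr5:92346638-92348889) are on chromosome 5. Ccl4, Ccl2, Ccl12 and Cxcl2 are read from the plus strand and the others from the minus strand.

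The 250 bases before the RefSeq start site (GRCm38.p6) were found for 6 of the 10 genes. The lines below show 4 of them, 5′ to 3′ on the strand of the gene, since these genes cover the range of responses: Cxcl10 and Ccl12 with the largest changes at day 1, Cxcl2 as the neutrophil attractant and Ccl9 as the gene whose change was not called. Capitals mark matches to the ISRE core, which is GAAA, any 2 bases and GAAA, or to the NF-kB consensus, both searched on either strand.
Cxcl10, chr5:92348890-92349139, minus strand: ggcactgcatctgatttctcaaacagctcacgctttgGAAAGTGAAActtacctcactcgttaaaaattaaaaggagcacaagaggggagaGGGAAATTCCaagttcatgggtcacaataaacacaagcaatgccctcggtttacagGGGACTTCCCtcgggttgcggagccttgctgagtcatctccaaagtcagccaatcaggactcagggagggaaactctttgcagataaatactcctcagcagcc
Ccl12, chr11:82101595-82101844, plus strand: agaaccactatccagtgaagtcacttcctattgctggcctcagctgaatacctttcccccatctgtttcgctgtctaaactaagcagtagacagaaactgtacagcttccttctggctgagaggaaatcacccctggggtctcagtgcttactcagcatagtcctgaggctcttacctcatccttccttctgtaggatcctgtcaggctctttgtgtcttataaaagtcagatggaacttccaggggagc
Cxcl2, chr5:90903649-90903898, plus strand: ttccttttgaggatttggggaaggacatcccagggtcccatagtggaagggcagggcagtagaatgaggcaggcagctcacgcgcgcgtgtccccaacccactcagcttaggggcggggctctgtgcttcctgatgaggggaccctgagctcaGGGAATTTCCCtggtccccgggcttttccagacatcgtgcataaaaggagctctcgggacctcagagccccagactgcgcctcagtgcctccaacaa
Ccl9, chr11:83578637-83578886, minus strand: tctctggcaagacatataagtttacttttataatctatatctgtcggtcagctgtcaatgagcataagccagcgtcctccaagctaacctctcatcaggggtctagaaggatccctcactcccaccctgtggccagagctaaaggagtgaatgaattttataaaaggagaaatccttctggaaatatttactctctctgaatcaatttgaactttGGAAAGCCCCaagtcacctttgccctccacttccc

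The ISRE core was present in 1 of the 6 promoters, that of Cxcl10, from base -213 to -204 before the start. It was present in 2.98% of 32841 promoters of the same length. NF-kB consensus matches lay in 3 of the 6, against 3.90% of all promoters. Cxcl10 had matches at -159 to -150 and at -103 to -94. Cxcl2 had a pair of overlapping matches on opposite strands (-97 to -88 and -96 to -87), and Ccl9 had 1 on the opposite strand (-35 to -26). The promoters of Ccl12, Ccl3 and Ccl6 held neither motif. A match is a string of letters and says nothing about binding in these cells.

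The matrix held 102043 cells and 707518630 unique molecular identifiers (UMIs, counted transcripts), with 5667 to 7596 cells and 32341960 to 70307384 UMIs per mouse. Median UMIs per cell were 8201.5 to 8995.5 in the ATV:4D9 day 1 mice, against 4975 to 5750 in the ATV:RSV mice and 4694 to 6117 at later days. Between 99.8% and 100% of the cells of a mouse held at least 3 of 10 microglia markers. Cells with at least 3 markers of another cell type made up 1.46 to 2.07% of cells in the day 1 ATV:4D9 mice and 0.671 to 1.37% in the other mice. A barcode sequence shared with another library was carried by 2579 cells.

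One day after the dose, the microglial chemokine profile had changed in nearly every gene examined. Of the 10 ligands, 8 were higher and 1, Ccl6, was lower in the ATV:4D9 day 1 mice than in the ATV:RSV mice, while Ccl9 was not called. These counts are from limma-voom on UMIs summed per mouse, with Benjamini-Hochberg adjusted p under 0.05 over 14260 genes. Among all genes 69.2% were called in that comparison, 34.7% higher and 34.6% lower, so that a call at day 1 was common and the size of the change says more. The median log2 fold change of the 10 ligands was 3.03, and that of all genes was -0.05. Scaled by library size alone the median of all genes was -0.29, with 3690 genes called higher and 6959 lower in place of 4942 and 4930. Levels in CPM (UMI counts scaled to a common library total with trimmed mean of M values factors) are given for each mouse in replicate order. Replicate numbers are batch numbers.

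**Figure D1:**
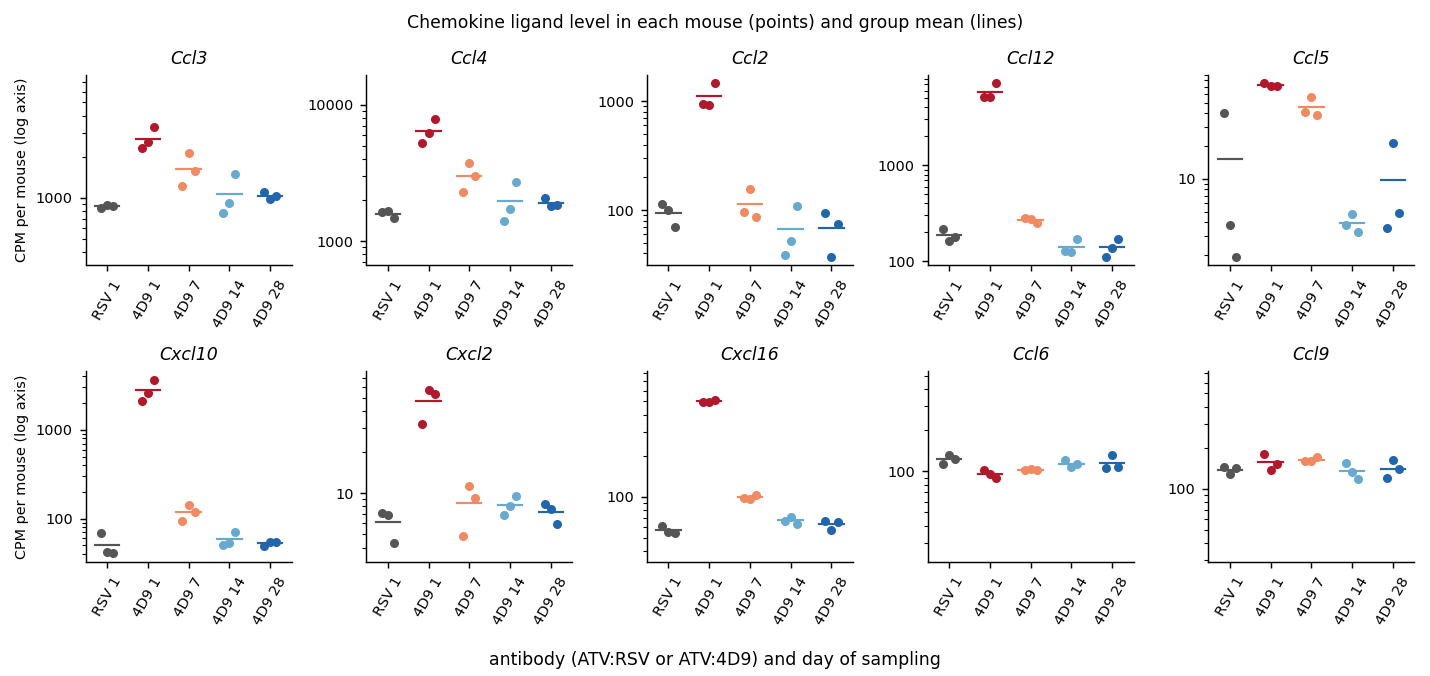
Level of each chemokine ligand in every mouse (CPM, log axis) by antibody and day, with points for the 3 mice and a line for the group mean. Cxcl10, Ccl12, Ccl2 and Cxcl16 stood far above the other groups at ATV:4D9 day 1, Ccl3, Ccl4 and Ccl5 remained above most control mice at day 7, and Ccl6 and Ccl9 stayed within a narrow range.

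Cxcl10, which attracts activated T cells through Cxcr3, had the largest change of the 10. It stood at 69.6, 42.3 and 40.8 CPM in the ATV:RSV mice and at 2123, 2610 and 3680 CPM in the ATV:4D9 day 1 mice. No mouse of either group came near the other. The log2 fold change was 5.78 with a standard error of 0.21, a 55.0-fold difference (adjusted p = 2.75e-12 by limma-voom). Within the 3 batches it was 4.93, 5.95 and 6.49.

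The Ccr2 ligands Ccl2 and Ccl12, the attractants of monocytes, rose together. Ccl12 stood at 216, 164 and 180 CPM under ATV:RSV and at 5190, 5123 and 7154 CPM at ATV:4D9 day 1. This was a log2 fold change of 4.96 with a standard error of 0.15 (adjusted p = 4.54e-13 by limma-voom). Its range at day 1 lay wholly above that of the controls, as did that of Ccl2. Ccl2 was at 113, 101 and 70.1 CPM in the control mice and at 947, 925 and 1464 CPM in the treated mice. Its log2 fold change was 3.55 with a standard error of 0.35 (adjusted p = 2.27e-07 by limma-voom). Of 6 monocyte markers, all were detected. Their summed level was 16.2 to 20.7 CPM at ATV:4D9 day 1 and 4.61 to 12.3 CPM under ATV:RSV. Ccr2 is among these markers and was itself called lower at ATV:4D9 day 1, so the markers did not all move with their sum. In the whole matrix 2 cells held 3 or more of these markers, and the part of monocytes in the levels of Ccl2 and Ccl12 was not tested.

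Ccl3 and Ccl4, the macrophage inflammatory proteins, were already abundant in control microglia and rose by a smaller factor. Ccl4 stood at 1634, 1649 and 1488 CPM under ATV:RSV and at 5262, 6231 and 7774 CPM at ATV:4D9 day 1 (log2 fold change 2.00, standard error 0.20, adjusted p = 2.53e-07 by limma-voom). Ccl3 stood at 847, 883 and 874 CPM in controls and at 2304, 2546 and 3277 CPM in treated mice (log2 fold change 1.62, standard error 0.21, adjusted p = 3.5e-06 by limma-voom). The groups did not overlap for either gene, and in both the third treated mouse was the highest.

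Ccl5 (Rantes), a T cell attractant, was much less even among the controls. ATV:RSV replicate 1 had 39.7 CPM, whereas replicates 2 and 3 had 3.76 and 1.93 CPM. The ATV:4D9 day 1 mice lay close together, at 75.3, 70.9 and 70.2 CPM. The log2 fold change was 3.33 with a standard error of 0.67 (adjusted p = 0.000353 by limma-voom), and without ATV:RSV replicate 1 it was 4.74 with a standard error of 0.66 (adjusted p = 1.51e-05). It was 2.46 without ATV:RSV replicate 3 (limma-voom adjusted p = 0.00332) and 2.23 with edgeR (adjusted p = 0.0148). Within batches it was 0.92, 4.24 and 5.18, so the size of this change rests on the control mouse chosen. DESeq2 gave no adjusted p for Ccl5. The summed T and NK cell markers reached 0.169 to 0.613 CPM in controls, with Cd3e at 0, and 0.566 to 2.11 CPM at ATV:4D9 day 1.

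Cxcl16, a membrane-anchored ligand that can also be shed, changed with the least spread between mice. Its level was 61.1, 55.0 and 54.2 CPM under ATV:RSV and 494, 497 and 514 CPM at ATV:4D9 day 1. The log2 fold change was 3.14 with a standard error of 0.06 (adjusted p = 9.5e-15 by limma-voom), with 3.01 to 3.24 within batches. Cxcl2, the neutrophil attractant, was scarce by comparison with its own level after treatment: 7.22, 6.90 and 4.32 CPM in controls and 32.3, 57.1 and 52.9 CPM in treated mice. Its log2 fold change was 2.92 with a standard error of 0.29 (adjusted p = 2.2e-07 by limma-voom). Both genes were higher in each treated mouse than in any control.

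The constitutive chemokines behaved differently. Ccl6 stood at 114, 132 and 124 CPM under ATV:RSV and at 102, 95.9 and 89.0 CPM at ATV:4D9 day 1, a log2 fold change of -0.37 with a standard error of 0.08 (adjusted p = 0.000782 by limma-voom) with every treated mouse below every control. With library size alone it was -0.61. Ccl9 stood at 144, 129 and 142 CPM in controls and at 181, 139 and 153 CPM in treated mice, with overlapping groups. Its log2 fold change was 0.18 (95% interval -0.06 to 0.43; limma-voom adjusted p = 0.168), and it was -0.059 with library size alone. Although Ccl5, Ccl9, Ccl6, Ccl3 and Ccl4 lie close together, their fitted log2 changes at day 1 thus ran from -0.37 to 3.33.

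By day 7 most of the response had receded, and 5 ligands were still called higher than under ATV:RSV day 1, where 3.98% of all genes were called and 2.99% were called higher. With library size alone, 317 genes were called higher and 882 lower, in place of 426 and 142. The median log2 fold change of the 10 ligands was 0.67. An unadjusted limma-voom p under 0.05 was found for 7 of them and for 2336 of all 14260 genes. Cxcl16 stood at 97.5, 96.6 and 103 CPM, above all control mice (log2 fold change 0.81, standard error 0.07, adjusted p = 2.32e-06 by limma-voom). Cxcl10 stood at 95.05, 144 and 119 CPM, with a log2 fold change of 1.24 with a standard error of 0.22 (adjusted p = 0.0035 by limma-voom). Within batches its difference was 0.45, 1.77 and 1.54. These 2 calls were kept whichever mouse was left out.

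The 3 other calls at day 7, of Ccl3, Ccl4 and Ccl5, were less secure. Ccl3 stood at 1219, 2113 and 1559 CPM and Ccl4 at 2286, 3763 and 2999 CPM, in each case above the 3 controls. Their log2 fold changes were 0.87 and 0.89, with standard errors of 0.21 and 0.20 (adjusted p = 0.0258 and 0.019 by limma-voom). Leaving out day 7 replicate 2, the highest mouse, gave 0.67 for Ccl3 and 0.72 for Ccl4 (limma-voom adjusted p = 0.122 and 0.0973). Neither gene was called without ATV:RSV replicate 2 or 3 or without day 7 replicate 3 (limma-voom adjusted p from 0.061 to 0.0872), nor was Ccl3 without ATV:RSV replicate 1 (adjusted p = 0.0726), although the fold changes hardly moved.

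Ccl5 at day 7 stood at 41.0, 55.9 and 38.5 CPM, 1 mouse lying below ATV:RSV replicate 1 (log2 fold change 2.62, standard error 0.68, adjusted p = 0.0426 by limma-voom). It was 4.03 with a standard error of 0.66 without ATV:RSV replicate 1 (adjusted p = 0.00204). The call was absent when any other control or day 7 mouse was left out, with log2 fold changes of 1.75 to 2.73 (adjusted p from 0.0718 to 0.205). It was also absent with edgeR, where the log2 fold change was 1.55 (adjusted p = 0.305), without the low-count filter (2.62, adjusted p = 0.0622) and in a fit of these 6 mice alone (2.62, adjusted p = 0.108). In batch 1 the difference was 0.05, against 3.89 and 4.32 in batches 2 and 3, so the difference did not hold within that batch.

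The remaining ligands had smaller log2 fold changes at day 7 than those called. Ccl12 stood at 279, 277 and 251 CPM, above every control mouse but not called (log2 fold change 0.54, standard error 0.16, adjusted p = 0.0772 by limma-voom), and it was called with batch as a replicate block (0.53, adjusted p = 0.0331) and in a fit of the 2 groups alone (0.54, adjusted p = 0.0156). Ccl2 stood at 95.8, 157 and 87.0 CPM and Cxcl2 at 4.90, 11.3 and 9.18 CPM, both overlapping the controls. Ccl6 was at 103, 104 and 102 CPM, below every control mouse (log2 fold change -0.26, limma-voom adjusted p = 0.1). Ccl9 was at 160, 160 and 170 CPM, above every control mouse (0.24, limma-voom adjusted p = 0.306). Ccl6 was called lower by DESeq2 (adjusted p = 0.0434) and with library size alone (-0.35, adjusted p = 0.022).

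Tested directly, 7 of the 10 ligands were lower at ATV:4D9 day 7 than at ATV:4D9 day 1 and none was higher, in a comparison where 66.9% of all genes were called and 33.9% were called lower. Log2 differences were -4.54 for Cxcl10, -4.42 for Ccl12, -3.32 for Ccl2, -2.51 for Cxcl2, -2.34 for Cxcl16, -1.10 for Ccl4 and -0.75 for Ccl3 (limma-voom adjusted p from 1.29e-13 to 0.00423). Ccl4 and Ccl3 therefore had the smallest called declines. For Ccl5 the difference was -0.71 (95% interval -1.70 to 0.28; limma-voom adjusted p = 0.192).

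None of the 10 was called at day 14 (0.4% of all genes by limma-voom) or at day 28 (0%). Among all 14260 genes, an unadjusted limma-voom p under 0.05 was found for 770 at day 14 and for 571 at day 28. At day 28 there were 0 calls by edgeR and 14 by DESeq2. edgeR and DESeq2 called none of the 10 at either day. At each of these days 2 ligands had an unadjusted p under 0.05, Ccl12 and Cxcl16. Ccl12 lay at 128, 126 and 169 CPM at day 14 and at 111, 138 and 168 CPM at day 28, with log2 fold changes of -0.41 and -0.43 (limma-voom adjusted p = 0.733 and 1.00). Cxcl16 lay at 66.5, 71.7 and 63.4 CPM and then at 67.02, 57.4 and 65.7 CPM, with log2 fold changes of 0.24 and 0.16 (adjusted p = 0.26 and 1.00). Day 14 replicate 3 was the highest of its group for Ccl2 (110 CPM against 39.0 and 51.6), Ccl3 (1504 against 780 and 916) and Ccl4 (2703 against 1415 and 1733). Over the 5 groups together, 9 ligands differed by the limma-voom F test and Ccl9 did not (adjusted p = 0.14), with 66.5% of all genes called.

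**Figure D2:**
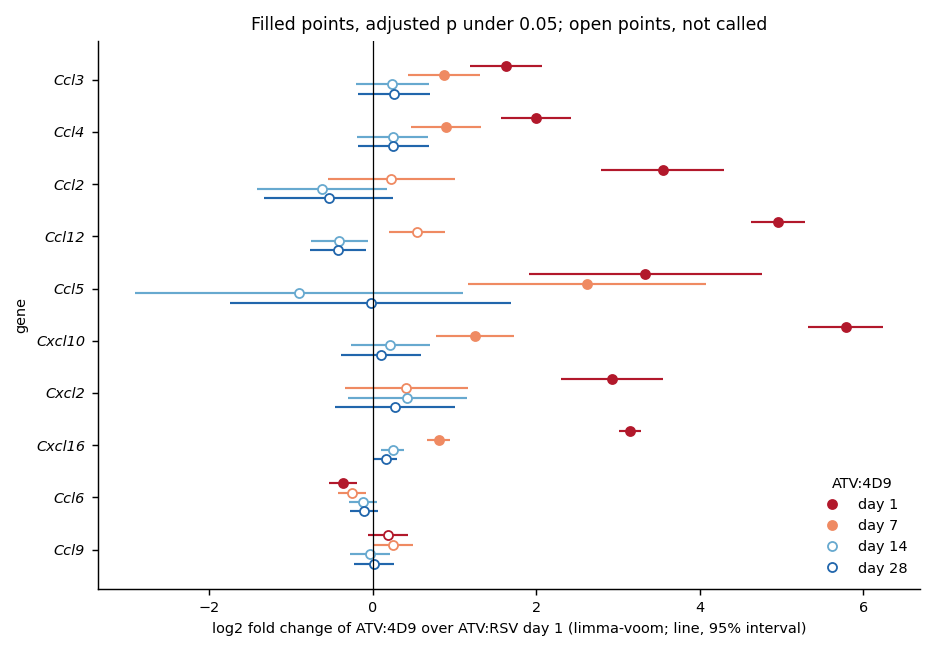
Log2 fold change of each ligand in the 4 ATV:4D9 groups over ATV:RSV day 1 (limma-voom), with points for the estimates, lines for 95% intervals, filled points for adjusted p under 0.05 and open points for those not called. The day 1 estimates reach 5.78 for Cxcl10, the 5 filled day 7 points lie between 0.81 and 2.62, and the day 14 and day 28 points are all open.

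The deposited counts also show in how many cells these chemokines were found. Day 1 cells had more UMIs, so each cell was thinned to 3385 UMIs and 10204 shallower cells were left out. The cells left out made up 3.93 to 5.79% of those of the ATV:4D9 day 1 mice and 8.69 to 17.8% of those of the ATV:RSV mice. Thinned shares of these groups are thus over differently selected cells. Thinning sets the cell totals equal and uses no trimmed mean of M values factors, as with library size alone. Shares over thinned cells are given first and shares over all UMIs second, as ranges over the 3 mice. Cxcl10 was found in 2.88 to 4.09% of control cells and in 49.2 to 64.3% of ATV:4D9 day 1 cells (3.64 to 5.33% and 63.2 to 72.0% unthinned). Ccl12 went from 25.9 to 31.9% of cells to 88.5 to 93.8% (37.4 to 43.3% and 95.04 to 96.6% unthinned). Ccl12 was thus found in most thinned cells of each day 1 mouse, and Cxcl10 in most thinned cells of some of them.

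Ccl2 was found in 8.42 to 12.8% of thinned control cells and 51.0 to 63.4% of thinned day 1 cells (11.5 to 17.8% and 65.2 to 74.0% unthinned). Cxcl16 was found in 16.8 to 18.9% and 62.6 to 63.8% (25.5 to 30.9% and 79.1 to 80.0% unthinned). Ccl4 rose from 46.1 to 54.7% of cells to 83.3 to 90.4% (50.1 to 56.8% and 90.9 to 92.7% unthinned), and Ccl3 from 38.4 to 46.5% to 66.9 to 77.2% (44.6 to 48.5% and 77.7 to 83.2% unthinned). Thus 4 further ligands gained cells, from very different starting shares.

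Ccl5 and Cxcl2 remained genes of few cells. Ccl5 was found in 0.367 to 3.12% of thinned control cells and 4.37 to 4.53% of day 1 cells (0.478 to 4.22% and 6.90 to 8.04% unthinned). For Cxcl2 the shares were 0.647 to 1.15% and 3.23 to 4.83% (0.802 to 1.67% and 5.47 to 7.89% unthinned). Ccl6 fell from 29.3 to 32.4% to 21.0 to 24.3% after thinning, but unthinned shares of 43.0 to 44.3% and 39.4 to 46.5% overlapped. The part of the missing scaling factors in the thinned fall was not tested. Ccl9 overlapped after thinning, with 30.7 to 31.9% and 29.0 to 35.1%, and was found in 39.2 to 44.8% and 48.5 to 57.7% of cells before it.

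At day 7, thinned shares were 6.45 to 9.68% for Cxcl10 and 25.5 to 28.1% for Cxcl16, above all controls in both cases. Ccl4 was found in 64.3 to 78.5% of thinned cells and Ccl3 in 54.1 to 68.3%, also above the control ranges, whereas Ccl2 (10.1 to 17.7%) and Ccl12 (29.2 to 37.8%) overlapped them. Ccl5 was found in 4.07 to 4.96% of cells, about the day 1 share.

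Counting over ligands, a control cell held UMIs of 2.69 to 2.87 of the 10 genes on average and a day 1 cell 5.90 to 6.00. Cells without any of the 10 made up 7.18 to 8.30% under ATV:RSV and 0.0702 to 0.183% at ATV:4D9 day 1, and at least 5 of the 10 were found in 14.9 to 17.8% and 79.2 to 81.9% of cells. These are unthinned values and include the difference in depth. The 10 genes supplied 0.315 to 0.342% of all UMIs of a control mouse, 1.51 to 2.13% of those of a day 1 mouse and 0.43 to 0.685% at day 7.

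Free RNA in the droplets can place a UMI in a cell that does not make the gene. In 22 cells with at least 3 choroid plexus or ependymal markers, Ccl2 was found in 0 cells. This allows a share of up to 13.6%, taken as 3 counts of 22, or up to 15.4% by the exact 95% interval. These cells had a median of 11368.5 UMIs, against 5828 in cells without markers of another type. Ccl4 was found in 7 of the 22 cells (31.8%, exact 95% interval 13.9 to 54.9%), against 67.8% of cells without such markers, and Cxcl10 in 2 (9.09%, against 18.6%). After thinning the shares were 4.76% and 63.4% for Ccl4 and 9.52% and 16.1% for Cxcl10, at levels of 26.3 and 3082 CPM of Ccl4 and 135 and 709 CPM of Cxcl10. CPM over these pooled cells are without the trimmed mean of M values factors. For Ccl5 and Cxcl2, 1 of 22 cells held a UMI (4.55%, exact 95% interval 0.115 to 22.8%), against 3.46% and 2.50% elsewhere. Thinned shares were 4.76% and 2.30% for Ccl5 and 0% and 1.69% for Cxcl2, and both genes were at 3.76 CPM in the 22 cells, against 30.1 CPM of Ccl5 and 16.3 CPM of Cxcl2 elsewhere. With so few cells, a single UMI of Ccl5 or Cxcl2 could not be told from background.

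How unevenly UMIs lay over cells set the ligands apart from each other. The share of a gene's UMIs held by the 1% of cells with most of them was compared with the share expected if UMIs fell in proportion to cell totals. In the ATV:RSV mice, 69.1 to 77.7% of Cxcl10 UMIs were in 1% of cells, where 7.24 to 9.83% were expected. Only 26 to 35 cells of a mouse held 50% of them, and single cells reached 122 to 197 Cxcl10 UMIs. At ATV:4D9 day 1 the share was 10.1 to 15.8% (expected 2.75 to 2.83%) and 411 to 561 cells held 50%. The control signal of Cxcl10 was therefore that of a small number of cells, and the day 1 signal was not.

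Ccl2 and Ccl12 showed the same in a milder form. The top 1% of cells held 38.3 to 49.5% of Ccl2 UMIs in controls (expected 6.00 to 7.57%) and 10.5 to 13.02% at ATV:4D9 day 1. For Ccl12 they held 24.2 to 43.0% (expected 4.91 to 5.93%) and 11.7 to 14.8%. Ccl3 and Ccl4 changed less on this scale, from 13.6 to 15.1% to 9.13 to 11.7% for Ccl3 and from 12.8 to 14.4% to 7.68 to 9.66% for Ccl4. Cxcl16 (10.4 to 12.1%), Ccl6 (10.2 to 12.6%) and Ccl9 (11.5 to 12.4%) were, of the ligands with enough UMIs to be ranked, the nearest to their expected shares in controls, which were 7.82 to 9.21%, 5.99 to 6.33% and 5.60 to 6.37%.

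Cxcl2 and Ccl5 were concentrated in few cells throughout. In controls 86.7 to 100% of Cxcl2 UMIs were in 1% of cells (expected 23.0 to 37.6%) and in day 1 mice 49.4 to 64.8% (expected 7.14 to 8.93%). For Ccl5 the top 1% held 82.5 to 100% and 66.1 to 73.6%, but in controls with few UMIs up to 80.9% was expected from sparse counts alone. In ATV:RSV replicate 1, 17 of 7020 cells held 50% of Ccl5 UMIs, while in replicate 2 a single cell had 73 of the 156 Ccl5 UMIs, or 46.8%. In ATV:4D9 day 28 replicate 2, 1 cell held 678 of 1011 (67.1%). That cell was in cluster 2, carried all 10 microglia markers and 1 of the T and NK cell markers, and had 18523 UMIs. The 21.2 CPM of that mouse, against 3.54 and 4.83 CPM in the others of its group, came for the most part from it.

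**Figure D3:**
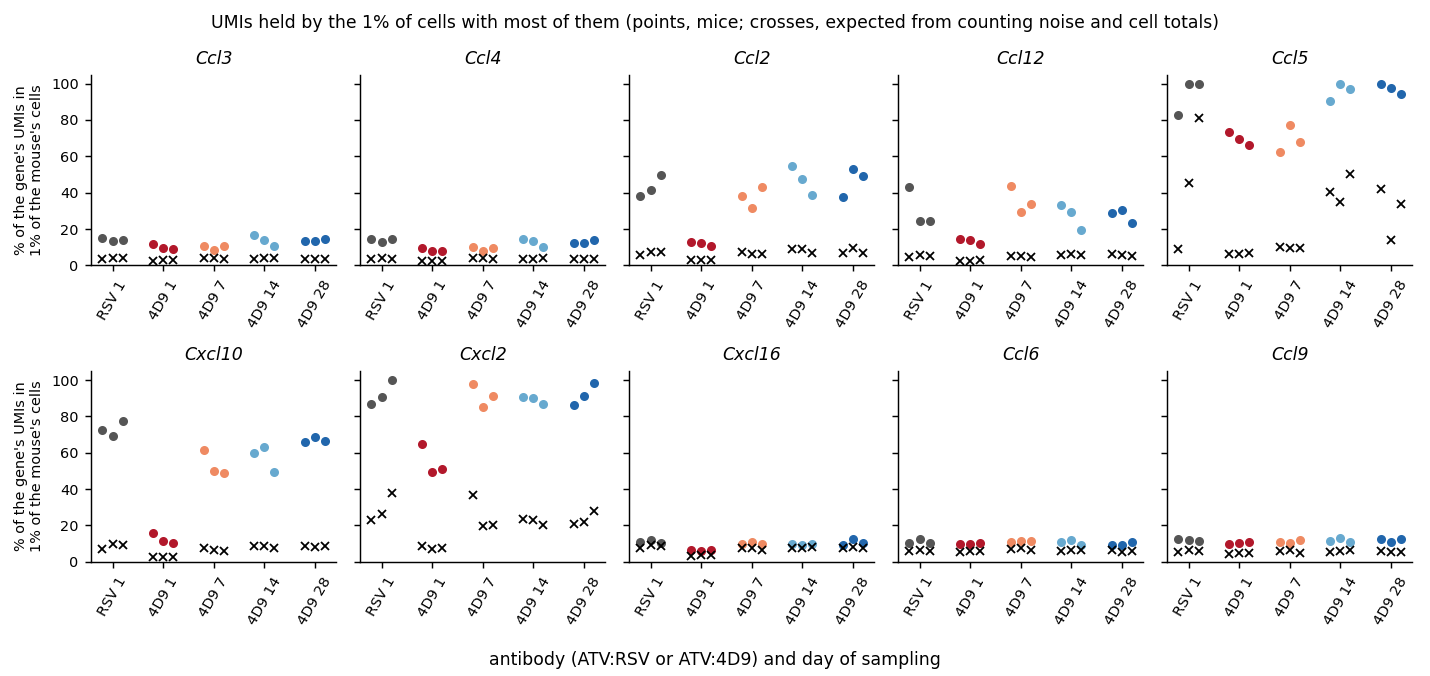
Share of each ligand's UMIs held by the 1% of cells with most of them in every mouse (points), with the share expected from counting noise and cell totals (crosses), by antibody and day. In controls the points of Cxcl10 lie at 69.1 to 77.7% and fall to 10.1 to 15.8% at ATV:4D9 day 1, whereas those of Cxcl16, Ccl6 and Ccl9 lie at 10.2 to 12.6% in controls.

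The excess squared coefficient of variation, which is the variance of a gene over cells beyond counting noise divided by its squared mean, ranked genes by unevenness. Among 8509 genes with at least 200 UMIs in every mouse, the median excess in controls was 0.159. Cxcl10 ranked 3 with an excess of 73.1 (range over mice 63.8 to 78.6), behind Lpl (84.3) and Ifit3 (79.9). Ccl2 ranked 17 (19.6), Ccl12 ranked 25 (14.0), Ccl3 ranked 85 (3.54), Ccl4 ranked 98 (3.29), Ccl6 ranked 228 (1.63) and Ccl9 ranked 263 (1.48). Cxcl16, at 0.565, ranked 1227. Ccl5 (587) and Cxcl2 (183) had too few UMIs to be ranked. All 8 ranked ligands were thus above the median gene.

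At ATV:4D9 day 1 the excess was 2.93 for Cxcl10, 2.70 for Ccl12, 2.50 for Ccl2, 1.65 for Ccl3 and 1.14 for Ccl4, each below its range in controls. That of Cxcl16 was 0.589, no different from controls beyond the spread of the mice. By day 7 Cxcl10 was again the gene of rank 3, with an excess of 38.5, and Ccl12 was at 22.4, above its control mean of 14.0 but within the control range of 7.42 to 26.1. At day 28 Cxcl10 had an excess of 66.9.

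The weight of these cells in the means can also be put as a ratio, which restates the shares above and is no separate evidence. Without the 1% of cells with most UMIs of the gene in each mouse, an alternative chosen after seeing the data, the log2 ratio of mean CPM at day 1 went from 5.54 to 7.24 for Cxcl10, from 3.31 to 3.92 for Ccl2 and from 4.72 to 5.06 for Ccl12. It hardly moved for Ccl4 (1.77 to 1.86), Ccl3 (1.40 to 1.47) and Cxcl16 (2.90 to 2.97). At day 7 that of Cxcl10 went from 1.14 to 1.94. These ratios are of unscaled CPM and have no test. None is given for Cxcl2 and Ccl5, of which at least 1 control mouse had no UMI left without these cells.

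Cells with at least 10 UMIs of a ligand give the same picture by number. For Cxcl10 there were 189 such cells among 20301 control cells (0.931%), and they held 71.7% of its UMIs. There were 7315 at ATV:4D9 day 1 (35.8%), 423 at day 7 (2.19%), 260 at day 14 and 239 at day 28. All 189 control cells carried at least 3 microglia markers, and 4 of them carried 3 markers of another type. For Ccl5 the numbers were 46 in controls, 283 at day 1, 103 at day 7, 8 at day 14 and 16 at day 28, and 1 and 2 of the first 2 sets carried a T or NK cell marker. Markers of another type, at least 3 of them, were carried by 5 of the 46 control cells (10.9%) and 10 of the 283 day 1 cells (3.53%). These shares were higher than among all cells of these mice. The Ccl5 cells were also deeper, with medians of 10542.5 UMIs in controls and 11344 at day 1. Medians over all cells of a mouse were 4975 to 5750 and 8201.5 to 8995.5. The part of depth in these shares was not tested. A cell of ATV:4D9 day 1 replicate 2 with 131 Ccl5 UMIs held 6 T and NK cell markers. Ccl4 reached 10 UMIs in 24.3% of control cells, 64.8% of day 1 cells and 39.3% of day 7 cells.

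The authors deposited 3 clusters. Cluster 2 held 87.3 to 93.5% of the cells of the ATV:4D9 day 1 mice and 1.12 to 3.23% of those of the other mice, the rest being in clusters 0 and 1. Clusters were made from the expression of these same cells, so the values that follow are a description. CPM within clusters are unscaled, that is without the trimmed mean of M values factors. Those factors were 0.878 to 0.906 in the ATV:4D9 day 1 mice and 1.05 to 1.06 in the ATV:RSV mice. Ranges of these groups that overlap on the unscaled measure need not overlap after scaling. In the ATV:RSV mice each of the 10 ligands had its highest mean level in cluster 2. For Cxcl2 this rested on 1 mouse (6.50, 104 and 7.87 CPM in cluster 2 against 5.70 to 10.3 CPM in cluster 0). How many of all genes had their highest mean in cluster 2 was not counted. Mean Cxcl10 levels were 46.8, 7.76 and 741 CPM in clusters 0, 1 and 2, mean Ccl12 levels were 187, 88.2 and 1621 CPM, and mean Ccl4 levels were 2037, 616 and 5011 CPM. Cluster 2 supplied on average 33.8% of Cxcl10 UMIs (18.6 to 51.6% over the 3 mice) and 34.6% of Ccl5 UMIs (22.2 to 57.7%) in controls, but 6.08% of those of Ccl3. Of the 339 control cells of cluster 2, 7.37% carried 3 or more markers of another cell type, 3.24% those of border-associated macrophages. Their part in these levels was not tested.

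Cluster 1 was low in 6 of the ligands in controls. Mean levels in clusters 0 and 1 were 1109 and 391 CPM for Ccl3 and 125 and 24.4 CPM for Ccl2. For Cxcl2 they were 7.71 and 1.86 CPM, and those of Ccl4, Ccl12 and Cxcl10 are given above. For none of these 6 did the mice of the 2 clusters overlap. How many of all genes lay apart between these clusters in the same way was not counted. By contrast Ccl6 (122 and 134 CPM), Ccl9 (146 and 136 CPM) and Cxcl16 (57.7 and 55.4 CPM) differed little between clusters 0 and 1.

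Within cluster 2 the ligands differed in how far the day 1 cells stood above the few control cells. Cxcl10 lay at 2050 to 3321 CPM in cluster 2 at ATV:4D9 day 1 and at 478 to 1143 CPM in cluster 2 under ATV:RSV. Ccl12 (4832 to 6444 against 967 to 2715 CPM), Ccl2 (869 to 1315 against 273 to 386 CPM) and Cxcl16 (462 to 472 against 159 to 218 CPM) were likewise apart. Ccl3, Ccl4, Cxcl2 and Ccl5 overlapped on this unscaled measure, for example with 2183 to 2930 against 2043 to 2434 CPM for Ccl3. With the scaling factors given above, these overlaps need not hold. For Ccl6 and Ccl9 the order was turned, with 77.6 to 88.5 CPM at day 1 and 205 to 556 CPM in controls for Ccl6, and 124 to 162 CPM and 258 to 319 CPM for Ccl9. The share of all genes whose ranges lay apart within cluster 2 in either direction was not counted.

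Levels in the few day 1 cells of clusters 0 and 1 were described in the same way, and the part of free RNA from the many cluster 2 cells in them was not tested. The 22 cells with choroid plexus or ependymal markers held 135 CPM of Cxcl10, 67.6 CPM of Ccl12 and 15.03 CPM of Cxcl16. These UMIs lay in 2 of the 22 cells for Cxcl10 and in 3 for Ccl12 and for Cxcl16. The 22 cells were few and pooled over all groups, so they give no level of free RNA at ATV:4D9 day 1. In cluster 1, mean Cxcl10 was 150 CPM at ATV:4D9 day 1 and 7.76 CPM in controls, mean Ccl12 was 744 and 88.2 CPM, and mean Cxcl16 was 111 and 55.4 CPM. Ccl3 in that cluster was at 377 to 387 unscaled CPM, within the control range of 335 to 458 CPM, which need not hold after scaling. At day 7 Ccl3 in cluster 1 lay at 748 to 1238 CPM and in cluster 0 at 1315 to 2346 CPM, above the control ranges of 335 to 458 and 1053 to 1188 CPM. Cxcl16 at day 7 was at 94.0 to 95.1 CPM in cluster 0 and at 83.8 to 98.3 CPM in cluster 1, also above controls (55.2 to 61.3 and 52.9 to 58.6 CPM). The share of all genes above controls in these clusters was not counted.

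**Figure D4:**
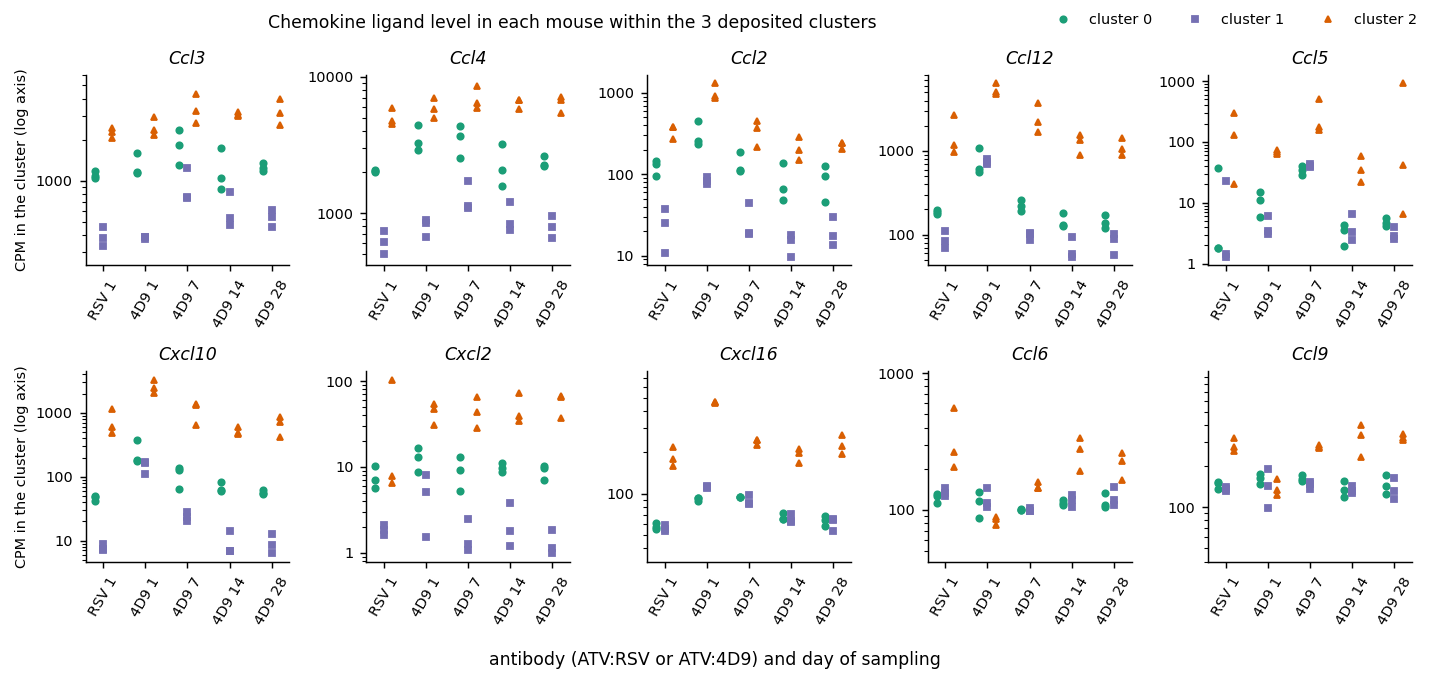
Level of each ligand in the cells of clusters 0, 1 and 2 of every mouse (unscaled CPM, log axis) by antibody and day, with 1 point per mouse and cluster. In the ATV:RSV mice the cluster 2 mean is the highest for all 10 genes, for Cxcl2 through 1 mouse at 104 CPM, and mean Cxcl10 in cluster 1 is 7.76 CPM in controls and 150 CPM at ATV:4D9 day 1.

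Whether the ligands were found in the same cells was described by pairs, as thinned cells with a UMI of both genes over the number expected from the 2 shares within each mouse. In controls 38 of the 45 pairs were above expectation, with a median ratio of 1.09. The share of all gene pairs above expectation was not counted, so this number is not particular to the ligands. Ccl5 with Cxcl10 had the highest ratio, 3.53 (34 cells where 9.64 were expected), but pairs with Ccl5 or Cxcl2 rest on few cells and on single UMIs, which could not be told from background. ATV:RSV replicate 1 supplied 1944 of the 2181 control UMIs of Ccl5, so the control ratios with Ccl5 rest largely on that mouse. Next came Ccl2 with Cxcl10 (1.82), Ccl5 with Cxcl16 (1.59), Ccl5 with Ccl12 (1.55) and Ccl2 with Ccl5 (1.53). Ccl3 with Ccl4 had a ratio of 1.41, and 70.8% of the cells with Ccl3 also held Ccl4, against 50.1% of all cells. Ccl6 with Cxcl16 was at its expected number, 962 cells where 966 were expected.

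At ATV:4D9 day 1 the median ratio was 1.05 and the highest were those of Ccl5 with Cxcl16 and with Ccl2, both 1.29. These ratios are bounded by how common the genes were. If every cell with Cxcl10 had also held Ccl12, the ratio of that pair would have been 1.10 at day 1 and 3.47 in controls, and the ratios found were 1.04 and 1.45. At day 7 the pair of Ccl5 and Cxcl10 was again the highest, at 2.15 (125 cells where 58.2 were expected). The pair of Ccl5 and Cxcl2 was at 0.80, 0.71 and 0.85 in these 3 groups and at 2.29 and 1.40 at days 14 and 28, on 2 to 26 shared cells, and no direction was read from it.

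**Figure D5:**
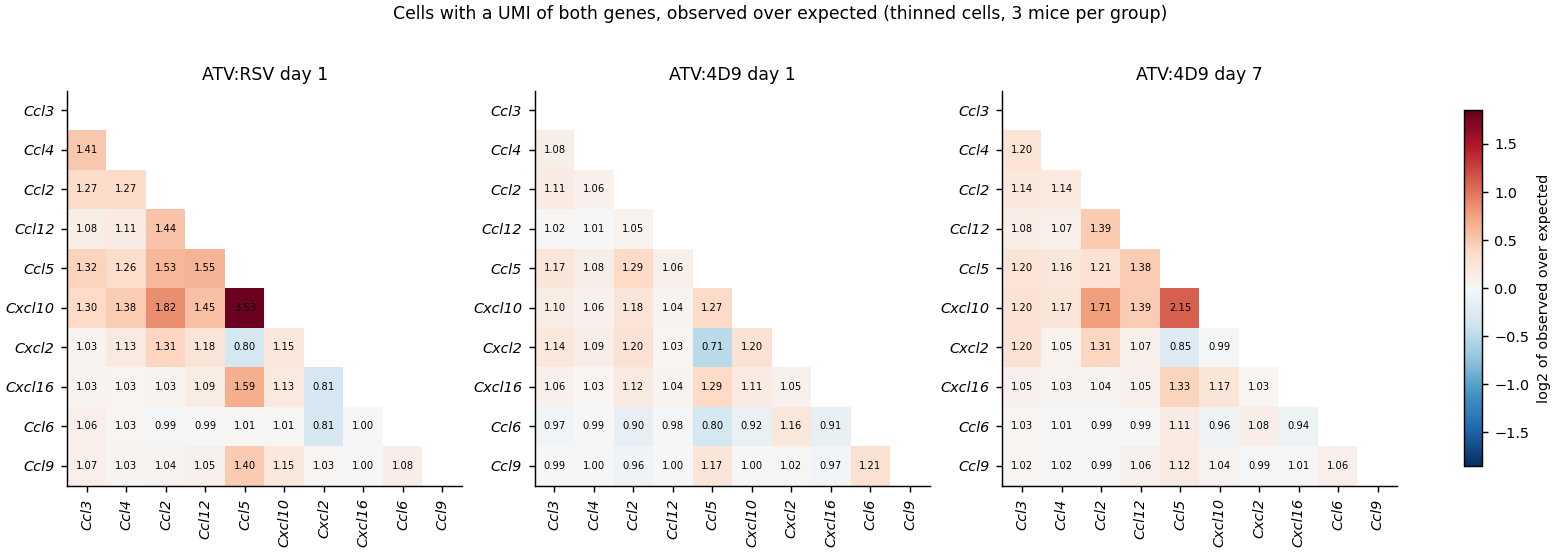
Observed over expected number of thinned cells with a UMI of both ligands for each of the 45 pairs, pooled over the 3 mice of ATV:RSV day 1, ATV:4D9 day 1 and ATV:4D9 day 7 (printed ratios, colour on a log2 scale). Ccl5 with Cxcl10 is highest in controls (3.53, with most Ccl5 UMIs from ATV:RSV replicate 1) and at day 7 (2.15), while day 1 ratios are close to 1.

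Across the cells of the 3 control mice, the genes whose log-scaled UMIs were most like those of a ligand by mean Pearson r were described for r of at least 0.2, without a test, since cell depth is shared by all genes. Ccl3 and Ccl4 were each other's nearest gene (0.60). Next for Ccl4 were Fos (0.33) and Zfp36 (0.33), and for Ccl3 Atf3 (0.28) and Zfp36 (0.27), all of them immediate early genes. Ccl12 was nearest to the interferon-induced genes Ifit3 (0.24), Isg15 (0.22) and Ifit3b (0.21). For Ccl5 the nearest were Ifi211 (0.25), an interferon-inducible gene, and Cybb (0.20), and for Ccl2 Egr3 (0.21), Egr1 (0.21) and Ccl12 (0.20). No gene reached 0.2 for Cxcl10, Cxcl2, Cxcl16, Ccl6 or Ccl9.

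Of 28 other chemokine ligand genes, 13 had enough UMIs to be tested, and at ATV:4D9 day 1 8 of them were higher and 5 lower, with a median log2 fold change of 1.38, beside 34.7% higher and 34.6% lower among all genes. Cxcl11, a further Cxcr3 ligand, went from a mean of 0.634 ± 0.47 (SD, n = 3) to 149 ± 15.8 CPM (log2 fold change 8.33, limma-voom adjusted p = 1.54e-08). Ccl7, a further Ccr2 ligand, went from 4.46 ± 1.43 to 137 ± 47.2 CPM (4.93, adjusted p = 7.94e-10). Pf4 rose by 1.00 on the log2 scale (adjusted p = 0.000206), while Ccl24 fell by 1.97 (adjusted p = 1.55e-07) and Ccl25 fell by 0.21 (adjusted p = 0.0155). Pf4 is also a marker of border-associated macrophages. The summed level of their 8 markers, Pf4 included, was 21.1 to 30.9 CPM at ATV:4D9 day 1 and 16.6 to 20.2 CPM in controls. The sum thus holds the rise of Pf4 and is not separate from it. None of these 13 genes was called at days 7, 14 or 28 by limma-voom.

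Of 24 chemokine receptor genes 14 were tested, and at day 1 2 were higher, 5 lower and 7 not called (median log2 fold change -0.39), so that the share called was below the 69.2% of all genes and the share lower was near the 34.6% of all genes. Cx3cr1, the fractalkine receptor, fell from 3320 ± 207 to 2241 ± 139 CPM (SD, n = 3, log2 fold change -0.57, limma-voom adjusted p = 6.31e-07), and Ccr2, from 4.98 ± 2.63 CPM, fell by 1.28 on the log2 scale (adjusted p = 0.00377). Ccr1, at 11.5 ± 0.501 and 10.3 ± 5.53 CPM, was not called (-0.32, adjusted p = 0.266). Ccrl2, a chemerin-binding receptor, rose from 135 ± 13.3 to 218 ± 35.3 CPM (0.68, adjusted p = 5.33e-05). It was the one receptor called at day 7, at 212 ± 17.5 CPM (0.65, adjusted p = 0.00243), and none was called at days 14 and 28.

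Gene lists of the pathways that are known to act on chemokine genes moved in different directions at day 1, when 34.7% of all genes were called higher and 34.6% lower. All 15 interferon response genes were higher (median log2 fold change 4.15), among them Isg15 (4.36), Ifit3 (4.12), Ifitm3 (4.65) and Bst2 (2.79). Of 16 NF-kB inflammatory genes, 12 were higher, 1 lower and 3 not called (median 0.51), with Il1a at 1.44, Bcl2a1b at 1.01, Icam1 at 0.51 and Nfkbia, the inhibitor of the factor, at 0.38. Cd83 was among those not called (0.32, limma-voom adjusted p = 0.084). Tnf, named after its values were seen, had the largest change of that list, 3.45 (limma-voom adjusted p = 4.15e-09). Of 17 immediate early genes none was higher, 13 were lower and 4 were not called (median -0.61), with Fos at -0.53, Jun at -0.88, Junb at -0.45, Jund at -1.01 and Btg2 at -0.66. Their summed level was 31094 to 33869 CPM in controls, 19850 to 22517 CPM at ATV:4D9 day 1 and 31492 to 31840 CPM at day 7. The part of dissociation in the levels of Ccl3 and Ccl4 was not tested.

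At day 7, when 2.99% of all genes were called higher, 7 of the 15 interferon response genes still were, among them Ifi204 at 1.54, Ifitm3 at 1.52, Oasl2 at 1.32, Oas1a at 1.23, Mx1 at 0.83 and Bst2 at 0.35 (limma-voom adjusted p from 0.00136 to 0.0442). All 15 were lower than at day 1. Of the NF-kB list 5 were called higher at day 7, namely Il1b (1.82, adjusted p = 0.00128), Il1a (0.84, adjusted p = 0.0214), Cd83 (0.75, adjusted p = 0.0138), Bcl2a1b (0.49, adjusted p = 0.000344; its near-identical copies can share reads) and Tnfaip3 (0.34, adjusted p = 0.0323). Il1b, an inflammatory cytokine, did not differ between days 7 and 1 by the test (log2 difference -0.13, adjusted p = 0.715), and the 1 immediate early gene called at day 7 was Jun (-0.25, adjusted p = 0.0408). No gene of these 3 lists was called at day 14 or 28 by limma-voom.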

How the data were processed

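Microglia from 15 mice were profiled by 3′ single-cell RNA sequencing. The authors mapped reads to mm10 (Cell Ranger 4.0.0 in the submitters' processing notes), filtered cells, clustered them in Seurat and deposited a matrix of UMI counts per gene and cell. The deposited cell table also gave the percent of mitochondrial UMIs, used here only to check that both files match. A 16th animal named in the labels was not analysed here.

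UMIs of each mouse were added up, and limma-voom was fitted to all 15 mice in R 4.3.3 (package versions 3.58.1 for limma, 4.0.16 for edgeR), after a filter (minimum count 10, minimum total 15) and TMM scaling, with Benjamini-Hochberg adjustment over 14260 genes. The fit and the unevenness measure were tested on simulated data. Intervals of shares of cells and floors cover counting error only, and those of log2 fold changes rest on the spread between mice. Cells, clusters and pairs of genes were described without a test (Python 3.11.15, numpy 2.4.6, pandas 2.3.3). Doublets were not called again.

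The 10 members and the gene lists were chosen with earlier results of these data known. From the lists, the 5 genes with the highest mean CPM and those called after day 1 were named, and for each ligand up to 3 genes with r of at least 0.2 over control cells. Replicate numbers are batch numbers in the labels and so pair the mice. Deviations of mice of the same batch had a mean r of 0.0539 (30 pairs), and of different batches -0.0267 (60 pairs). In none of the 15 pairs of mice within groups did counts agree within sampling noise. Alternatives were edgeR, DESeq2 1.42.0, other scalings, no filter, the batch as a replicate block, only the groups compared, fewer cells and each mouse left out.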

Additional observations from a re-analysis of the deposited data

Results flagged for a closer look

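For 7 ligands the response to ATV:4D9 differed between days 7 and 1 by a direct limma-voom test of the difference between those groups. The log2 difference was -4.54 for Cxcl10, -4.42 for Ccl12, -3.32 for Ccl2, -2.51 for Cxcl2, -2.34 for Cxcl16, -1.10 for Ccl4 and -0.75 for Ccl3, all lower at day 7. Among all genes 66.9% were called in that comparison, so the share of ligands called in either direction was near that of all genes. Called lower were 7 of the 10 ligands and 33.9% of all genes. Groups of 3 mice are too small for a test of single outlying mice.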

How the results depend on the processing

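With batch as a replicate block, 6 ligands were called at day 7 in place of 5, Ccl12 being added, and the block changed no other call of the 10. With library size alone 6 were called at day 7, with edgeR or no filter 4, and leaving out 1 mouse gave 2 to 4. At day 1 the number called was 8 to 9. Over all genes, DESeq2 called 871 at day 7 and 132 at day 14 in place of 568 and 57, and library size alone called 1199 and 19. With library size alone, 5908 genes were higher and 3971 lower at day 7 than at day 1, in place of 4703 and 4835. Reversed directions were all of differences that were not called. With library size alone Ccl9 was at -0.059 at day 1 and -0.0022 at day 28, and without cells with markers of another type Ccl5 was at 0.10 at day 28. With 1 mouse left out, the log2 fold change ran from -0.027 to 0.39 for Ccl2 at day 7, from -0.039 to 0.44 for Ccl3, from -0.021 to 0.45 for Ccl4, from -1.77 to 0.50 for Ccl5 and from -0.14 to 0.059 for Ccl9 at day 14, from -0.90 to 1.38 for Ccl5, from -0.10 to 0.13 for Ccl9 and from -0.042 to 0.35 for Cxcl10 at day 28, and from -0.032 to 0.16 for Ccl9 between days 7 and 1. The cause of these shifts was not tested.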
